A study of Rattus norvegicus with 12 samples.

Results

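The genes described here are named for proteins of the cytosolic ribosome and were chosen by that name. They include 4 paralogs of such genes (Rpl7l1, Rpl3l, Rps27l and Rps4y2), which the name alone does not place in the ribosome. Probe sets with a single gene symbol that starts with Rpl or Rps and a digit were taken, symbols starting with Rps6k (the S6 kinases) were left out, and a gene with several such probe sets was read at the one with the brightest mean over the 12 arrays. This gave 42 genes on 46 probe sets, of 10411 genes with a single symbol and 15866 probe sets tested. Of the 42 genes, 29 are named for the large subunit and 13 for the small subunit. A further 33 probe sets of the family carried several symbols and are counted separately without naming a gene. Rpl10, Rps27, Rps27a, Rpl22l1 and Rps19bp1 had no probe set with a single symbol and were not analysed here.

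RNA came from cultures of rat ventral midbrain (strain CD1 per the labels) started at embryonic day 12 and read on a single-colour Affymetrix array, 1 array per sample. The 4 groups of 3 arrays each were depolarized cultures at 2 h, control cultures at 2 h, depolarized cultures at 30 min and control cultures at 30 min. All cultures had 6 days with bFGF (20 ng/ml) and SHH (50 ng/ml), which are growth and patterning factors, then 3 days without them. On day 9 the depolarized cultures had 2 h in 56 mM KCl, which depolarizes neurons, and the control cultures had 2 h in control medium. The times 30 min and 2 h count from the end of that treatment to collection. Each of 3 sets of cultures held embryos from all 4 pregnant rats together, and RNA of duplicate cultures was pooled, so the spread is between pooled cultures, not animals. The labels leave unstated whether the 30 min and 2 h cultures belong to 1 preparation, so collection time and any batch of that kind cannot be told apart.

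A ribosome joins rRNA to a set of proteins that is held in close proportion, and every growing cell expresses these genes. Many of their mRNAs start with a cytosine followed by a run of pyrimidines, the 5' terminal oligopyrimidine (TOP) motif, through which mTOR and LARP1 govern their translation. In neurons, activity is known to act on protein synthesis through mTOR and phosphorylation of ribosomal protein S6. An expression array sees the amount of mRNA and neither its translation nor protein phosphorylation. In bulk cultures, fewer cells of a type and less RNA per cell cannot be told apart.

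RefSeq start-site windows of build GRCr8 were matched by gene identifier for 35 of the 42 genes. Each window below runs 15 bases either side of the annotated start, so base 16 of each is the annotated first base of the transcript. Capitals mark runs of 6 or more C or T on the strand printed, which has the same sense as the transcript. The 9 genes shown are those with a matched window among the up to 6 largest differences past the test in each of the 2 comparisons between collection times, the comparisons in which members passed.
Rps27l, chr8:76443643-76443672, plus strand: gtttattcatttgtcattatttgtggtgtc
Rpl22, chr5:168117946-168117975, plus strand: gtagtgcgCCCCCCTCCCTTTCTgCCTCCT
Rpl14, chr8:129163605-129163634, plus strand: gggcgggCCCTCTCCCTTCTCgctgagcgc
Rpl12, chr3:36661925-36661954, plus strand: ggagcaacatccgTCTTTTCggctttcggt
Rps6, chr5:106420526-106420555, minus strand: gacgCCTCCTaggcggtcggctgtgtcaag
Rps28, chr7:15311319-15311348, minus strand: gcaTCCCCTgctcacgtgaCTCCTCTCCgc
Rpl18, chr1:105325255-105325284, plus strand: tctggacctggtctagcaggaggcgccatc
Rpl35a, chr11:81235007-81235036, minus strand: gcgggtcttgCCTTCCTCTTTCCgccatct
Rpl35, chr3:43165907-43165936, minus strand: cgCCCCTTCCTCTTTCTCTCgaaccgggcg
Such a run was present in 26 of 35 members (74.3%) and in 9487 of 33469 windows of the whole table (28.3%). A C at the annotated start followed by 4 more C or T was present in 9 of 35 members (25.7%) and in 881 of 33469 windows (2.63%). Among the genes printed, Rpl22, Rpl14, Rpl35a and Rpl35 have that arrangement, while Rps27l and Rpl18 have no run in the window. Annotated starts can lie some bases from the base used in these cells, and no match says only that these letters are not in this window.

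Mean signals of 36 members lay between 11.98 and 14.01 log2 units, and those of the other 6 lay between 5.72 and 10.34. Array medians lay between 8.32 and 8.43. The 6 were Rpl7l1, Rpl39, Rps27l, Rps4y2, Rpl30 and Rpl3l. Signals of different probe sets depend on the probes and do not rank the genes' transcripts. The residual SD of the fit had a median of 0.06 log2 units over the 42 genes, and arrays of a group correlated at 0.9987 or more over these genes. Arrays of different groups correlated at 0.9964 to 0.9995 over them, so this correlation does not set the groups apart.

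**Figure D1:**
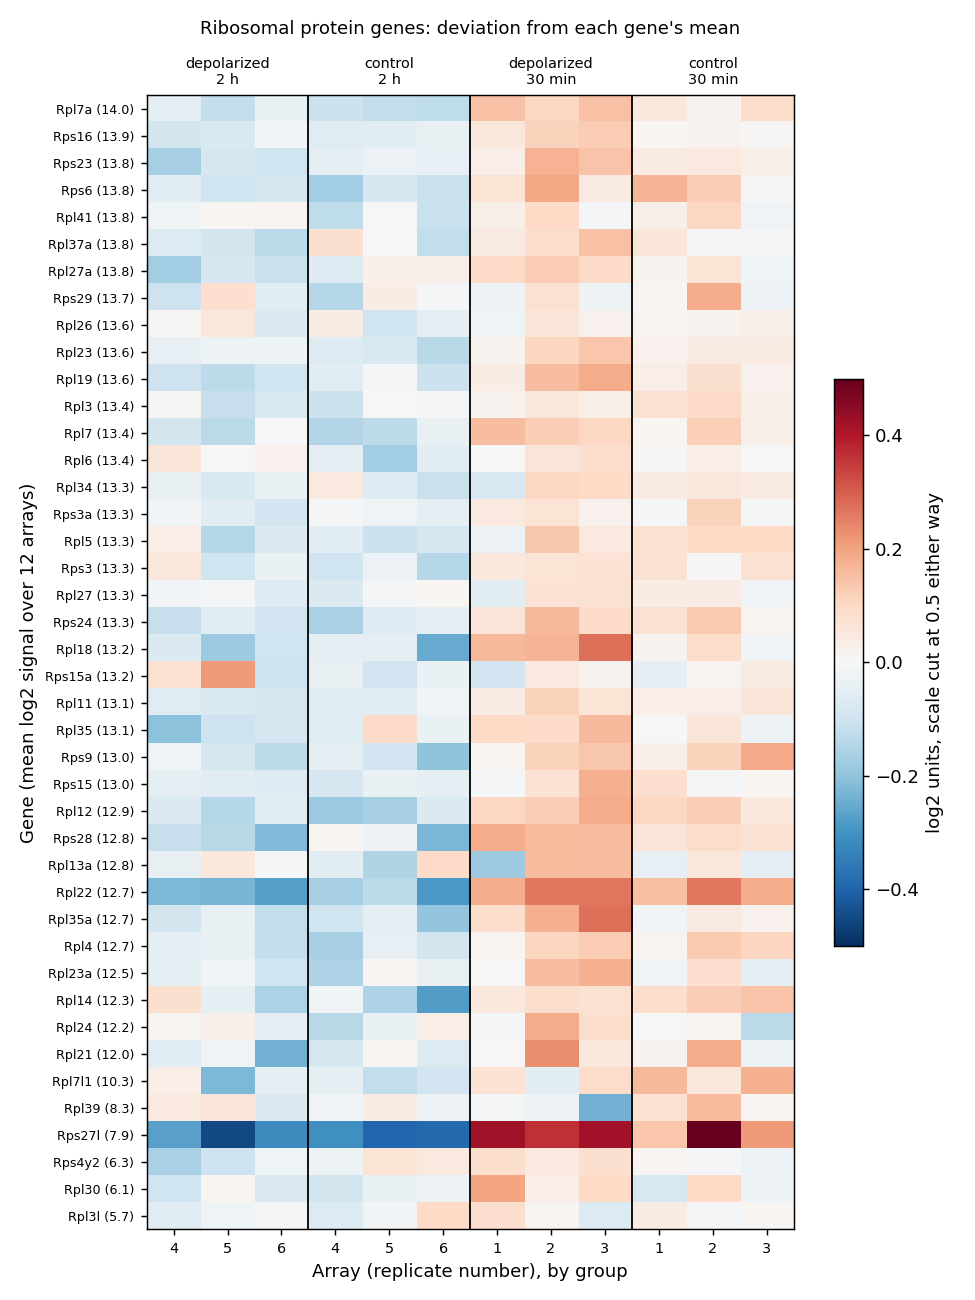
Deviation of each of the 42 genes (rows, ordered by mean log2 signal, given in brackets) from its own mean over 12 arrays, in log2 units, with arrays in columns by group and replicate number. The columns of the 2 h groups are mostly blue (below the gene's mean) and those of the 30 min groups mostly red (above it), with Rps27l and Rpl22 the strongest rows, and depolarized and control columns of the same time look alike.

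At 30 min no ribosomal protein gene differed past the test between depolarized and control cultures. By limma, with p-values adjusted by Benjamini-Hochberg across every probe set tested, 0 of 42 passed an adjusted p of 0.05, where 24% of all probe sets did (10.8% as higher and 13.1% as lower). At an unadjusted p below 0.05 there were 3 of 42, namely Rpl18 and Rpl35a, which were higher, and Rpl39, which was lower, against 32.4% of all probe sets. The median difference, depolarized minus control, was 0.04 log2 units over the members (a 1.03-fold ratio) and 0.01 over all probe sets. Member differences ran from -0.17 to 0.17, and 32 of 42 were above 0, against 8624 of 15866 probe sets. Every 95% interval lay between 0.797-fold and 1.25-fold, and for 37 members the interval stayed within 1.2-fold either way. On the same arrays the immediate-early genes that follow neuronal activity rose, Fos by 4.06 log2 units (SE 0.08, adjusted p = 2.02e-14 by limma), Egr1 by 3.52, Arc by 2.63 and Nr4a1 by 1.78.

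The members with the smallest p at 30 min were Rpl35a, Rpl18 and Rpl39. Rpl35a, a large-subunit protein whose human gene is mutated in Diamond-Blackfan anaemia, had signals of 12.83, 12.92 and 13.01 log2 units in depolarized cultures, against 12.72, 12.78 and 12.76 in controls. The groups did not overlap, and the difference was 0.16 (SE 0.07, 95% interval 0.02 to 0.30, adjusted p = 0.0865 by limma). Rpl18, another large-subunit protein, had 13.37, 13.37 and 13.48 in depolarized cultures, against 13.22, 13.29 and 13.19 in controls (difference 0.17, SE 0.07, adjusted p = 0.091). Its groups also did not overlap. Rpl39, a small protein that lines the exit of the peptide tunnel, had 8.27, 8.25 and 8.04 in depolarized cultures, against 8.36, 8.44 and 8.29 in controls (difference -0.17, SE 0.07, adjusted p = 0.101). It was the only member with every depolarized array below every control array at 30 min, and 8 members had every depolarized array above (Rpl7a, Rps16, Rpl27a, Rpl18, Rpl35, Rps28, Rpl35a and Rps4y2). Those 9 of 42 stand beside 36.8% of all probe sets with groups that did not overlap. Rpl18 and Rpl35a passed the test when array medians were centred (adjusted p = 0.0239 and 0.0276 by limma), a setting that moved the median of all probe sets to 0.06, and also with a trended and robust prior.

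At 2 h, 0 of 42 genes passed the limma test against 25.2% of all probe sets (9.51% as higher and 15.7% as lower). A single gene, Rps4y2, had an unadjusted p below 0.05, against 35.4% of all probe sets. The median difference was 0.01 log2 units over the members and -0.00 over all probe sets. Member differences ranged from -0.13 to 0.12, with 23 of 42 above 0, against 7905 of 15866 probe sets. The 95% intervals of the members lay between 0.832-fold and 1.21-fold, and 39 stayed within 1.2-fold either way. The immediate-early genes were still raised, Fos by 3.39, Egr1 by 2.59, Arc by 1.49 and Nr4a1 by 1.23.

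The smallest p-values at 2 h belonged to Rps4y2, Rpl35 and Rpl27a. Rps4y2, a paralog of the small-subunit protein S4 named after a human Y-linked gene and placed on chromosome 4 in the rat table, had 6.16, 6.22 and 6.30 log2 units in depolarized cultures, against 6.30, 6.39 and 6.37 in controls. The groups met near 6.30, and the difference was -0.13 (SE 0.06, adjusted p = 0.136 by limma). Rpl35, which sits at the exit of the peptide tunnel, had 12.88, 12.98 and 13.00 in depolarized cultures, against 13.03, 13.18 and 13.05 in controls (difference -0.13, SE 0.06, adjusted p = 0.147). Rpl27a, a large-subunit protein, had 13.57, 13.66 and 13.64 in depolarized cultures, against 13.68, 13.77 and 13.78 in controls (difference -0.12, SE 0.06, adjusted p = 0.158). For both genes every depolarized array was below every control array, as it was for Rps23 and Rpl11. Rpl23 and Rpl6 had every depolarized array above, and these 6 of 42 stand beside 37.5% of all probe sets. Rps4y2 passed after quantile normalization (-0.17, adjusted p = 0.0394 by limma).

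**Figure D2:**
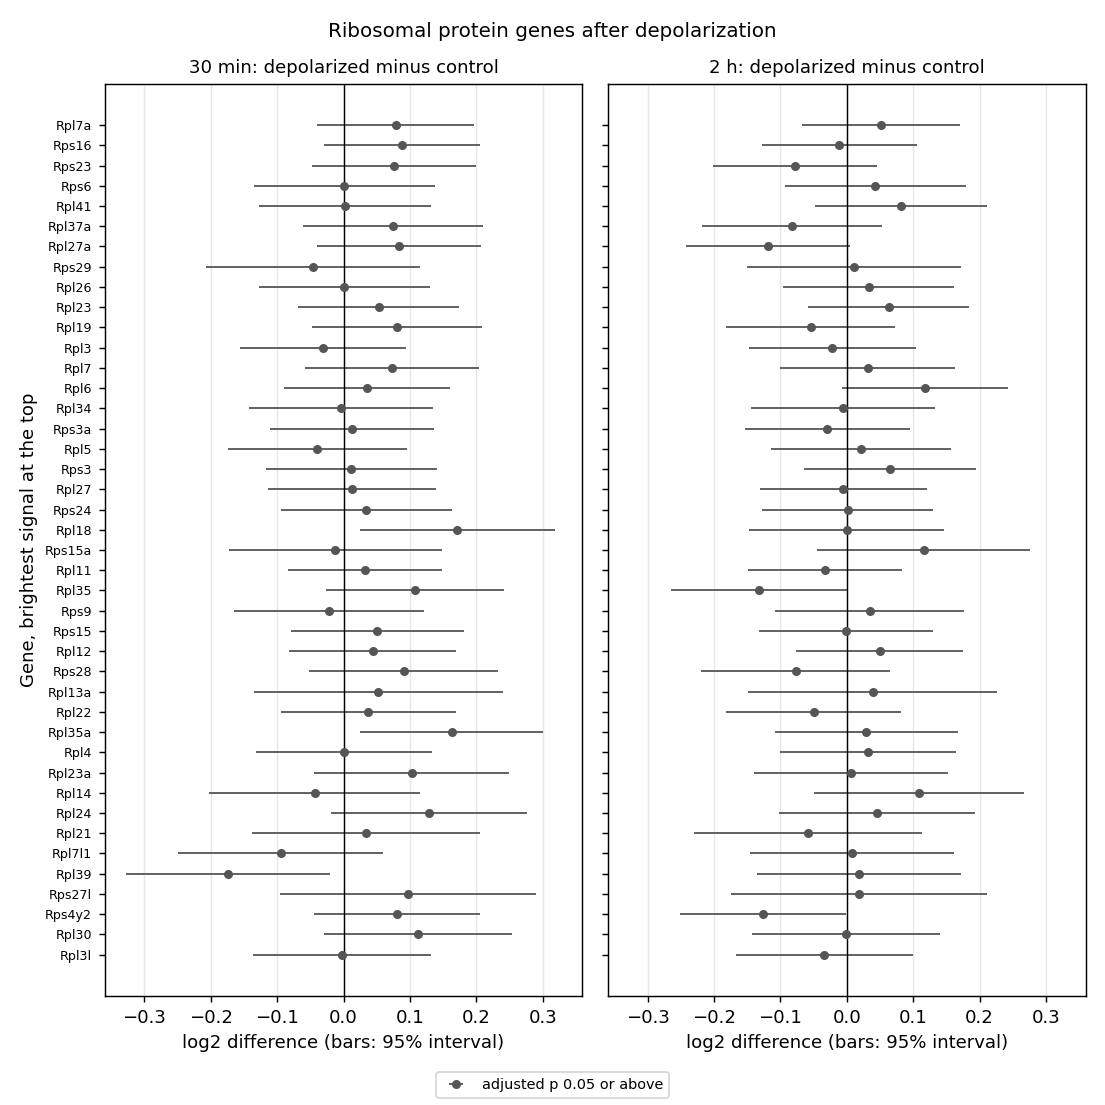
Depolarized minus control difference of each of the 42 genes in log2 units at 30 min (left) and 2 h (right), with points for the fitted difference and bars for its 95% interval from limma, 3 arrays per group. All points lie between -0.17 and 0.17 at 30 min and between -0.13 and 0.12 at 2 h, and no gene passed an adjusted p of 0.05.

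The response at 2 h minus the response at 30 min also passed the test in 0 of 42 genes, against 13% of all probe sets. With an unadjusted p below 0.05 there were 3, Rpl35, Rps4y2 and Rpl27a, all negative, against 25.2% of all probe sets. Rpl35 had the largest of these at -0.24 (SE 0.09, adjusted p = 0.0939 by limma), followed by Rps4y2 at -0.21 (adjusted p = 0.123) and Rpl27a at -0.20 (adjusted p = 0.13). Each was higher in depolarized cultures at 30 min without overlap of the arrays (differences of 0.11, 0.08 and 0.08 in that order) and lower at 2 h, though neither difference passed. With a trended and robust prior Rpl35 and Rpl27a passed (adjusted p = 0.0367 and 0.0414). Over the 42 genes the treatment differences at 30 min and at 2 h, which come from different arrays, had a Pearson r of -0.288, where all 15866 probe sets gave 0.492. Members share the array design and the normalization, so this is a description only.

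By role, none of the members below passed the test at either time. Rps6, whose protein is the S6 kinase substrate that neuronal activity is known to phosphorylate, had 13.73, 13.68 and 13.69 log2 units in depolarized cultures at 2 h, against 13.61, 13.69 and 13.67 in controls. At 30 min it had 13.85, 13.97 and 13.82 in depolarized cultures, against 13.95, 13.90 and 13.79 in controls. The groups overlapped at both times, and the 95% intervals of the difference were -0.09 to 0.18 at 2 h and -0.14 to 0.14 at 30 min. The 4 proteins known to bind MDM2 when free of the ribosome (Rpl5 and Rpl11, which travel with 5S rRNA, and Rpl23 and Rpl26) differed by -0.04 to 0.05 at 30 min and by -0.03 to 0.06 at 2 h. Rpl3 and Rpl4, which reach towards the peptidyl transferase centre, differed by -0.03 and 0.00 at 30 min and by -0.02 and 0.03 at 2 h. The 3 proteins around mRNA entry and decoding (Rps3, Rps15 and Rps23) differed by 0.01 to 0.08 at 30 min and by -0.08 to 0.07 at 2 h.

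Other lists of the ribosome and its making gave different counts on the same arrays, where 24% of all probe sets passed at 30 min and 25.2% at 2 h. Mitochondrial ribosomal proteins, which build the separate ribosome of mitochondria, were lower after depolarization in 35 of 71 genes at 30 min and higher in 1, with a median of -0.23. At 2 h they were lower in 45 of 71 and higher in 0 (0 also at an unadjusted p below 0.05, by limma), with a median of -0.27. Mrpl15 fell at 30 min (-0.84, SE 0.06, adjusted p = 1.05e-07 by limma) and at 2 h (-0.64), as did Mrps30 (-0.53 and -0.43). Mrpl34 also fell at both times (-0.28 and -0.50), whereas Mrpl16 fell at 30 min (-0.81) and had a difference of -0.04 at 2 h (adjusted p = 0.781). Between the mitochondrial and cytosolic lists no test was run, and their counts are given side by side.

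Ribosome biogenesis factors process rRNA and assemble subunits. At 30 min 4 of 60 rose and 15 fell (31.7% in all, median -0.06), and at 2 h 4 rose and 8 fell (20% in all, median -0.05). Of all probe sets, 24% passed at 30 min and 25.2% at 2 h. Nat10, which acetylates rRNA, rose by 0.80 at 30 min and differed by 0.03 at 2 h (adjusted p = 0.845 by limma), and nucleostemin (Gnl3) rose by 0.53 and 0.32. Rcl1, which acts in small-subunit rRNA processing in yeast, fell at both times (-0.52 and -0.37), and Ltv1, an export and maturation factor of the small subunit, fell at 30 min (-0.51) and had -0.08 at 2 h (adjusted p = 0.388). RNA polymerase I, which transcribes rRNA genes, and its factors had 1 of 9 higher and 4 lower at 30 min, and 1 higher and 1 lower at 2 h. Polr1h (-0.50), Polr1b (-0.36) and Polr1e (-0.36) were lower at 30 min and Polr1d (0.26) was higher, and of these only Polr1e passed at 2 h (-0.23, adjusted p = 0.015, lost when either of 2 arrays was left out).

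The signalling list around mTOR and the S6 kinases had 4 of 20 higher and 5 lower at 30 min, and 1 higher and 8 lower at 2 h. That is 45% at either time, against 24% of all probe sets at 30 min and 25.2% at 2 h. Myc, a transcription factor that drives ribosome production in many cells, rose by 1.75 at 30 min (SE 0.15, adjusted p = 4.26e-07 by limma) and by 1.49 at 2 h. Mtor fell at both times (-0.37 and -0.56), as did Sesn1, an inhibitor of mTOR complex 1 signalling (-1.01 and -0.39). Mlst8, the partner of mTOR, fell at 30 min (-0.44) and at 2 h (-0.24), and its 2 h call was lost in 4 alternative settings (adjusted p of 0.0681 to 0.0938 by limma). Other TOP mRNAs, which encode translation factors and similar proteins, had 0 of 12 past the test at either time by limma, with 1 at an unadjusted p below 0.05 at 30 min and 4 at 2 h. Eif4b had 0.17 at 30 min and -0.16 at 2 h (both adjusted p = 0.104), and Nap1l1 had 0.09 and 0.16. Of the 3 measured ribosomal proteins that the naming rule leaves out, Rplp0, Rpsa and Rack1, none passed at either time by limma, and neither did any of the 33 family probe sets with several symbols (0 of these also at an unadjusted p below 0.05 at either time). The other 1519 probe sets in the top 10% by signal passed in 21.1% at 30 min and 22.8% at 2 h.

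**Figure D3:**
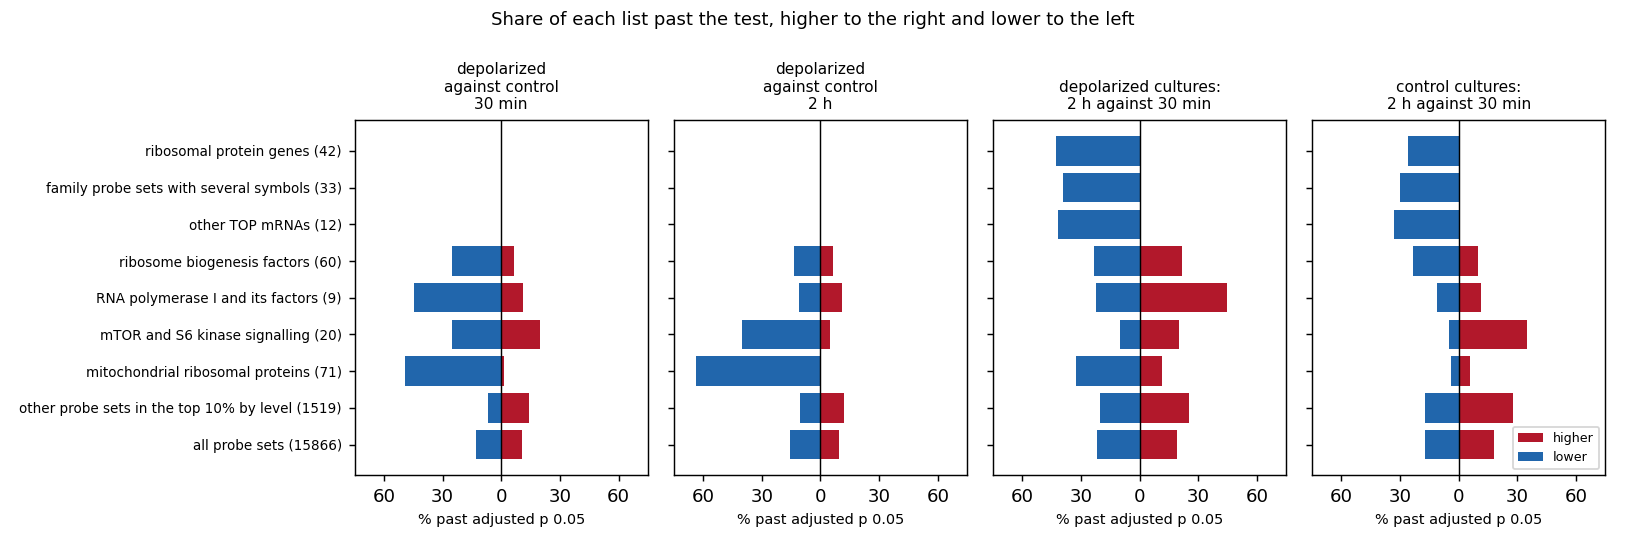
Percentage of each list past an adjusted p of 0.05 by limma, higher to the right of 0 and lower to the left, in the 4 comparisons, with the number of measured genes or probe sets in brackets. The top 3 rows are empty in both treatment panels, while mitochondrial ribosomal proteins have 35 of 71 lower at 30 min and 45 of 71 lower at 2 h, and in the collection time panels the top 3 rows hold calls only on the lower side.

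Between collection times, every ribosomal protein gene past the test was lower at 2 h than at 30 min, in depolarized and in control cultures. In depolarized cultures 18 of 42 (42.9%) passed as lower and 0 as higher, against 41% of all probe sets in either direction, 21.8% as lower and 19.2% as higher. In control cultures 11 of 42 (26.2%) passed as lower and 0 as higher against 35.3% of all probe sets in either direction, 17.2% as lower and 18.1% as higher. At an unadjusted p below 0.05 by limma, 0 members were higher in either culture type, against 21.6% of all probe sets in depolarized cultures and 21.2% in controls. The median difference, 2 h minus 30 min, was -0.16 log2 units in depolarized cultures (0.898-fold) and -0.10 in controls (0.931-fold), where all probe sets had -0.05 and -0.04. The difference was below 0 for 40 of 42 genes in depolarized cultures and for 41 in controls. Over all 15866 probe sets it was below 0 for 9446 in depolarized cultures and for 9308 in controls. Every array at 2 h was below every array at 30 min for 27 genes in depolarized cultures (28.3% of all probe sets) and for 24 in controls (27.5%), and the opposite held for 0 in either (21.6% and 22.1% of all probe sets in that order). The 6 genes lower in both were Rpl12, Rpl22, Rpl7a, Rps24, Rps27l and Rps6. They are 33.3% of the depolarized list and 54.5% of the control list. The matching shares over all probe sets were not computed, so these shares are not shown to be particular to the members. Whether the difference between times differed between depolarized and control cultures was tested gene by gene as the response difference above, with 0 of 42 passing.

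**Figure D4:**
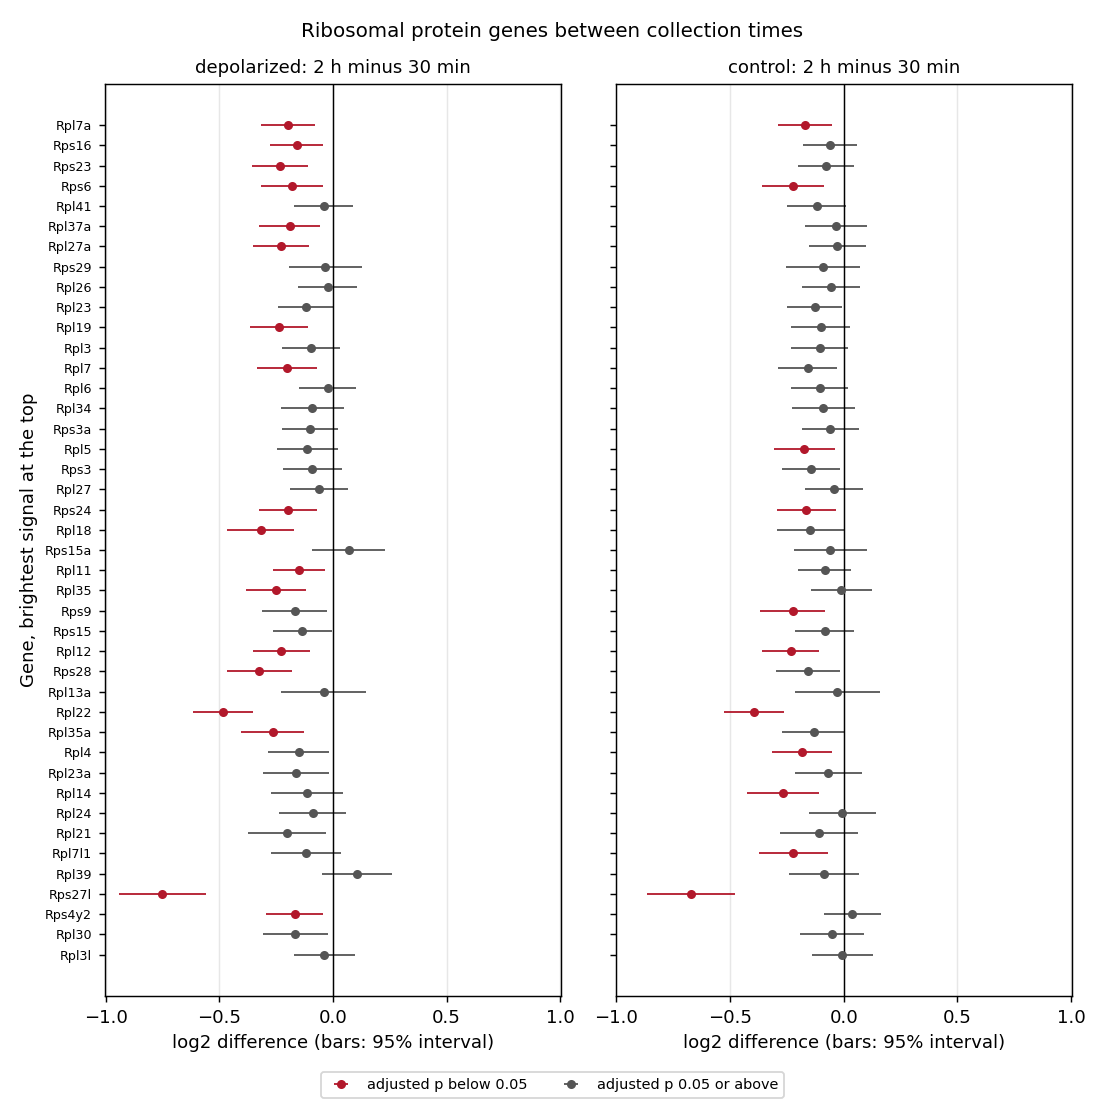
Difference between collection times, 2 h minus 30 min, of each of the 42 genes in log2 units in depolarized cultures (left) and control cultures (right), with 95% intervals from limma and genes past an adjusted p of 0.05 in red. Red points number 18 on the left and 11 on the right and all lie below 0, with Rps27l at -0.75 and -0.67 and Rpl22 at -0.48 and -0.39 farthest out.

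Rps27l, a paralog of the small-subunit protein S27 and a p53 target in human cells, differed most. It had 7.59, 7.41 and 7.55 log2 units in depolarized cultures at 2 h, against 8.29, 8.23 and 8.29 at 30 min (difference -0.75, SE 0.09, 0.595-fold, adjusted p = 7.84e-06 by limma). In controls it had 7.56, 7.47 and 7.48 at 2 h, against 8.01, 8.43 and 8.08 at 30 min (difference -0.67, SE 0.09, 0.628-fold, adjusted p = 3.06e-05). The times did not overlap in either culture type, and the call held in each of 11 alternative settings. Its window above holds no pyrimidine run.

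Rpl22, a large-subunit protein whose loss mice survive with a defect in T cell development, was next. It had 12.51, 12.51 and 12.46 log2 units in depolarized cultures at 2 h, against 12.92, 13.00 and 13.00 at 30 min (difference -0.48, SE 0.06, 0.716-fold, adjusted p = 1.51e-05 by limma). In controls it had 12.57, 12.61 and 12.45 at 2 h, against 12.89, 13.00 and 12.92 at 30 min (difference -0.39, SE 0.06, 0.761-fold, adjusted p = 0.000133). Again the times did not overlap, and the call held in each of 12 alternative settings.

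In depolarized cultures the next largest were Rps28, Rpl18, Rpl35a and Rpl35. Rps28, which lies near the exit of the mRNA channel, had 12.68, 12.66 and 12.58 at 2 h, against 12.98, 12.96 and 12.95 at 30 min (difference -0.32, SE 0.07, adjusted p = 0.00112 by limma). Rpl18 differed by -0.32 (adjusted p = 0.00167), Rpl35a by -0.27 (adjusted p = 0.00401) and Rpl35 by -0.25 (adjusted p = 0.00475), each with all arrays at 2 h below those at 30 min. In controls the same genes had -0.16, -0.15, -0.13 and -0.01 in that order, and none passed. All 4 were also among the 8 genes whose depolarized arrays lay above the controls at 30 min, a comparison that uses the same depolarized arrays.

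In control cultures the next largest were Rpl14, Rpl12, Rps9 and Rps6. Rpl14 had 12.26, 12.12 and 11.99 log2 units in controls at 2 h, against 12.36, 12.40 and 12.42 at 30 min (difference -0.27, SE 0.07, adjusted p = 0.0111 by limma), and in depolarized cultures -0.11 (adjusted p = 0.238). Rpl12, which anchors the stalk that recruits translation factors, had 12.71, 12.72 and 12.82 in controls at 2 h, against 12.99, 13.01 and 12.94 at 30 min (difference -0.23, adjusted p = 0.00607), and -0.23 in depolarized cultures (adjusted p = 0.0061). Rps9 had -0.22 in controls (adjusted p = 0.016) and -0.17 in depolarized cultures (adjusted p = 0.056). Rps6 had -0.22 (adjusted p = 0.0136) in controls and -0.18 (adjusted p = 0.0354) in depolarized cultures, where its call held in 7 of 12 alternative settings (adjusted p up to 0.159). Rpl12 kept its call in all 12 alternative settings of either comparison, whereas the control calls of Rpl14, Rps9 and Rps6 were each lost on leaving out 1 or another array.

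Other members described by rule had smaller differences. Rpl5 had -0.11 in depolarized cultures (adjusted p = 0.171 by limma) and -0.17 in controls (adjusted p = 0.0447), and Rpl11 had -0.15 (adjusted p = 0.0397) and -0.08 (adjusted p = 0.249). The depolarized call of Rpl11 held in 6 of 12 alternative settings (adjusted p up to 0.135). Rpl3, a core large-subunit protein, had -0.10 in depolarized cultures and -0.11 in controls, without passing in either. The 2 differences above 0 in depolarized cultures were Rpl39 at 0.11 and Rps15a at 0.07, and the 1 in controls was Rps4y2 at 0.04, none past the test. The large-subunit genes had a median of -0.15 in depolarized cultures (11 of 29 lower) and -0.11 in controls (7 of 29), and the small-subunit genes had -0.17 (7 of 13) and -0.09 (4 of 13). The second probe set of Rpl7 was also lower (-0.35 in depolarized cultures and -0.41 in controls). That of Rpl14 was lower in depolarized cultures (-0.30, adjusted p = 0.0351 by limma). In controls, where the first probe set of Rpl14 passed, the second had -0.19 and did not pass (adjusted p = 0.166). That of Rps24 went the other way in depolarized cultures (0.18, adjusted p = 0.142 by limma) and had -0.15 in controls (adjusted p = 0.254). That of Rpl7l1 had -0.02 in depolarized cultures and -0.04 in controls, without passing in either. Over the 42 genes, the differences in depolarized and control cultures, which share no array, had a Pearson r of 0.705, and all probe sets gave 0.67. The r over members leans on Rps27l (-0.75 in depolarized cultures and -0.67 in controls) and Rpl22 (-0.48 and -0.39), which lie farthest out in both. It was not computed without them, so it does not describe how closely the remaining genes matched.

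The summed linear signal of the 42 probe sets gives the same picture per array. It made up 2.74%, 2.78% and 2.71% of all probe sets' signal in depolarized cultures at 2 h and 2.67%, 2.71% and 2.74% in controls at 2 h. At 30 min it made up 2.99%, 3.17% and 3.09% in depolarized cultures and 3.007%, 3.115% and 2.995% in controls. Arrays of the 2 times did not overlap, and depolarized and control arrays of a time did. The median deviation of the 42 genes from their own means lay between -0.08 and -0.05 in depolarized arrays at 2 h and between -0.06 and -0.04 in control arrays at 2 h. At 30 min it lay between 0.04 and 0.11 in depolarized arrays and between 0.02 and 0.07 in control arrays.

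**Figure D5:**
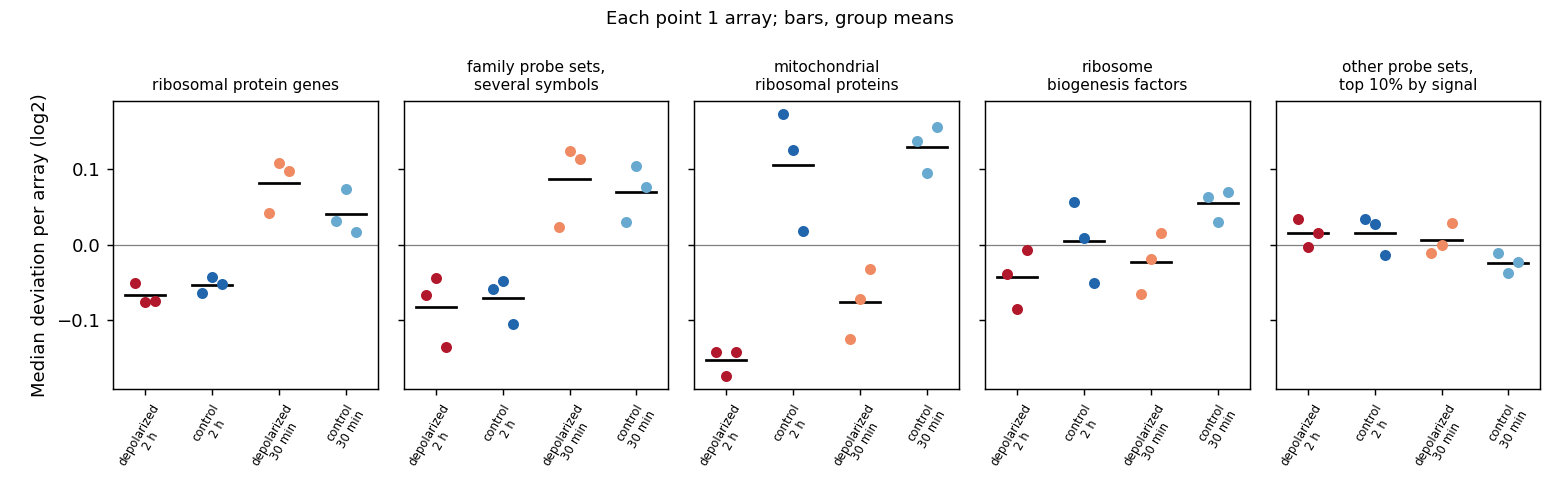
Median deviation of each list's genes from their own means, in log2 units, per array (points) with group means (bars), for 5 lists. The ribosomal protein genes lie below 0 on all 6 arrays at 2 h and above 0 on all 6 at 30 min, the family probe sets with several symbols have the same split, and the mitochondrial list splits depolarized from control arrays.

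Probe sets of the family with several symbols had 13 of 33 lower at 2 h in depolarized cultures and 10 of 33 in controls, with medians of -0.15 and -0.13 and 0 higher in either. For this and the lists below, all probe sets had 21.8% lower and 19.2% higher in depolarized cultures, and 17.2% lower and 18.1% higher in controls. The other TOP mRNAs had 5 of 12 lower in depolarized cultures and 4 of 12 in controls, with 0 higher. Nap1l1 had -0.31 and -0.39 (adjusted p = 0.00132 and 0.000284 by limma), and Eif4b had -0.43 (adjusted p = 0.000158) and -0.09 (adjusted p = 0.309). Rplp0, the stalk protein outside the naming rule, was lower in depolarized cultures (-0.19, adjusted p = 0.0199), and Rpsa and Rack1 did not pass in either. The other probe sets in the top 10% by signal moved both ways, with 381 higher and 307 lower in depolarized cultures and 423 higher and 260 lower in controls. Mitochondrial ribosomal proteins had 8 higher and 23 lower in depolarized cultures and 4 higher and 3 lower in controls, and biogenesis factors had 13 higher and 14 lower and 6 higher and 14 lower. RNA polymerase I genes had 4 of 9 higher and 2 lower in depolarized cultures and 1 higher and 1 lower in controls, and the mTOR list had 4 of 20 higher and 2 lower and 7 higher and 1 lower.

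Markers of cell types also moved with collection time, and their part in the lower ribosomal protein signals was not tested. The summed linear signal of 7 measured neuron markers was 22899 to 25625 in depolarized cultures at 2 h and 25483 to 25951 in controls at 2 h, against 12674 to 13593 and 11408 to 13138 at 30 min. All 7 neuron markers rose in controls and 6 of 7 in depolarized cultures. Progenitor markers were lower at 2 h in 3 of 5 in depolarized cultures and 4 of 5 in controls, with sums of 24086 to 27510 and 23363 to 24932 at 2 h against 28008 to 29982 and 27319 to 30742 at 30 min. Among them Mki67, a marker of dividing cells, fell in depolarized cultures (-1.40) and in controls (-0.96). Oligodendrocyte lineage sums were 1939 to 2106 in depolarized and 2314 to 2753 in control cultures at 2 h, against 4744 to 5990 and 6150 to 7538 at 30 min. Olig1 alone had large differences (-2.20 in depolarized cultures and -2.45 in controls), and the other 4 markers of that list lay between -0.36 and -0.07. Of the dopaminergic markers, 2 of 7 (Foxa2 among them) had mean signals above the array median, and Pitx3 had 6.46. Their sums were 2936 to 3443 in depolarized and 2826 to 3106 in control cultures at 2 h, against 2027 to 2106 and 1490 to 1751 at 30 min. In depolarized cultures 3 of 7 passed as higher, Ddc (1.15), Foxa2 (0.77) and Nr4a2 (0.25). Th (0.15), Slc6a3 (0.16), Slc18a2 (0.18) and Pitx3 (-0.02) did not. In controls 5 of 7 passed as higher, without Slc18a2 (0.07) and Pitx3 (0.11). Sums for astrocyte markers (8714 to 10002 over all arrays) overlapped between times, though Aldh1l1 (0.30), Gfap (-0.21) and Slc1a3 (-0.27) passed in controls and Aldh1l1 (0.30) in depolarized cultures. Sums also overlapped for 6 endothelial, mural and fibroblast markers, and 0 of 6 microglia markers had a mean above the array median.

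Between depolarized and control cultures, where 24% of all probe sets passed at 30 min and 25.2% at 2 h, neuron markers had 1 of 7 higher at 30 min and 2 of 7 at 2 h, and progenitor markers 0 of 5 and 1 of 5. Dopaminergic markers had 2 of 7 higher at 30 min (Nr4a2 by 0.87 and Foxa2 by 0.29) and 3 of 7 at 2 h (Foxa2, Slc18a2 and Nr4a2). Th, Slc6a3, Pitx3 and Ddc passed at neither time. They had 0.19, 0.34, 0.11 and 0.32 at 30 min and -0.09, -0.22, -0.02 and 0.01 at 2 h in that order. The sums of the dopaminergic list lay above those of controls without overlap at 30 min and overlapped them at 2 h. Oligodendrocyte lineage markers had 1 of 5 lower at each time (Pdgfra, -0.58 and -0.75), and their sums lay below those of controls without overlap at both times. Olig1, Mbp, Mog and Sox10 passed at neither time. They had -0.20, -0.03, -0.01 and 0.00 at 30 min and 0.05, 0.04, 0.13 and -0.01 at 2 h in that order, so the sums do not show a fall of the whole list. Astrocyte markers had 0 of 6 past the test at either time by limma, and 0 at an unadjusted p below 0.05.

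The number of lower calls between times changed when arrays were left out 1 at a time, in fits that have fewer samples. Over the 6 arrays left out in turn it was 6 to 8 in controls. In depolarized cultures it was 13 to 22, against 18 with all arrays. In controls it was 6 without replicate 1 or 3 of the 30 min group and 7 without replicate 4, 5 or 6 of the 2 h group, against 11 with all arrays. Of 12 alternative settings, Rpl22 and Rpl12 kept their control calls in all, while Rpl5 kept its call in 5 and Rps24 in 6.

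Of the 23 genes lower at 2 h in either culture type, 20 have a start-site window, and 15 of these hold a run of 6 or more C or T, as do 11 of the 15 other members with a window.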

How the data were processed

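The values deposited by the authors are log2 signals per probe set. Per the submitters' processing notes they were made with RMA, without a stated version. Which of the 12 arrays were normalized together is not given in the sources used here. Of 15923 probe sets in the table, 57 are array controls and were not tested. The platform annotation, which can be old, gave 1 symbol for 12783 of the rest, several for 312 and none for 2771, and 0 member symbols needed updating. Arrays have no depth in reads, so precision is set by how many arrays a group has. Detection calls were not used here. Close paralogs and pseudogenes of ribosomal protein genes can share probes, so a probe set may read more than its named gene.

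With limma 3.58.1 in R 4.3.3, 1 mean per group was fitted to the deposited values of the 12 arrays, leaving 8 residual degrees of freedom. Tests were two-sided and p-values were adjusted by Benjamini-Hochberg across 15866 probe sets. The comparisons were depolarized against control at each time, the difference of these responses, and 2 h against 30 min within each culture type. Named members are up to 6 largest past the threshold in each direction per comparison, or the 3 with the smallest p where none passed, plus Rps6, Rpl3, Rpl5, Rpl11, Rpl22 and Rps27l, and up to 4 genes per other list. Others were chosen after their values were seen. The members and lists were chosen with earlier results of these data known. Nothing says that replicates were separate preparations, so p-values measure the spread between these pooled cultures. Replicate numbers are shared by depolarized and control arrays of a time, but over all probe sets same-numbered arrays did not all deviate together (correlations of -0.32, 0.23 and 0.05 at 30 min and 0.24, -0.11 and -0.24 at 2 h). Over the 42 members they were -0.03, 0.18 and 0.34 at 30 min and 0.55, 0.18 and 0.23 at 2 h. The main fit has no block. Alternatives were fits of the compared arrays alone, centring of array medians, quantile normalization, removal of a loess trend on level, leaving out the dimmest 50% of probe sets, a trended and robust prior, a threshold of 0.01, the replicate block, each array left out in turn and, added after seeing the data, the family probe sets with several symbols.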

Additional observations from a re-analysis of the deposited data

Results flagged for a closer look

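By the limma interaction test of the response at 2 h minus that at 30 min, no ribosomal protein gene passed, where 13% of all probe sets did. Of the other lists, 8 of 71 mitochondrial ribosomal proteins (11.3%), 9 of 60 biogenesis factors (15%) and 1 of 12 other TOP mRNAs (8.33%) passed, shares near that 13%. The RNA polymerase I genes had 3 of 9 (33.3%), the mTOR list 4 of 20 (20%) and the immediate-early genes 3 of 4. The 9 given here are those that the naming rule had chosen. Mrpl16 had a difference of 0.77 (SE 0.12, adjusted p = 0.000344), since its response was -0.04 at 2 h and -0.81 at 30 min. Polr1h had 0.62 (adjusted p = 0.000269), with responses of 0.12 and -0.50 in that order. Sesn1 had 0.62 (adjusted p = 0.00583), from -0.39 and -1.01, and Ltv1 had 0.43 (adjusted p = 0.00511), from -0.08 and -0.51. Nat10 had -0.77 (adjusted p = 0.000523), from 0.03 and 0.80. Eif4b, a translation initiation factor with a TOP mRNA, had -0.33 (adjusted p = 0.0373), from -0.16 and 0.17, neither of which passed. Of the immediate-early genes, Arc had -1.14 (adjusted p = 0.0128), Egr1 had -0.93 (adjusted p = 0.0282) and Fos had -0.67 (adjusted p = 0.00104).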

How the results depend on the processing

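No call of a named gene changed sign under the alternatives that were read gene by gene. The sign of other members' calls was not checked in this way. For the ribosomal protein genes, the count higher at 30 min was 2 (Rpl18 and Rpl35a) with array medians centred or with a trended and robust prior, 1 (Rps16) after quantile normalization and 0 to 1 over arrays left out (Rps27l without replicate 2 of the controls, Rpl35a without replicate 1 of the depolarized group), against 0. The median difference at 30 min was 0.0854 with centring and 0.0079 with the loess trend removed, and at 2 h it was 0.0509 and -0.0202. The count lower at 2 h was 1 after quantile normalization (Rps4y2) and 2 with the loess trend removed (Rps4y2 and Rpl27a). The response difference was lower in 2 genes (Rpl35 and Rpl27a) with a trended and robust prior. Between times, the count lower in controls was 14 with centring, 15 with a trended and robust prior, 3 at a threshold of 0.01, 6 to 8 with an array left out and 21 of 75 with the family probe sets added. In depolarized cultures it was 23 with centring, 24 with that prior, 11 at that threshold, 13 to 22 with an array left out and 31 of 75 with the family probe sets. Centring also raised the lower calls over all probe sets, to 3140 against 2730 in controls and to 4085 against 3461 in depolarized cultures. Matching counts over all probe sets at the other settings named here are not given. The lower counts after leaving out an array come with fewer samples, and the cause of the other changes was not tested. With the replicate block, 0 members passed in either treatment comparison or in the response difference, as without it. Over all probe sets the block gave 1607 higher and 1917 lower at 30 min and 1392 and 2225 at 2 h, against 1720 and 2085 and 1509 and 2492 without it. Centring moved the share of calls that were higher, over all probe sets, to 58.9% at 30 min and 51.4% at 2 h, against 45.2% and 37.7%. Calls of other named genes were lost only for Polr1e and Mlst8 at 2 h. Mlst8 had an adjusted p of 0.0754 after quantile normalization, 0.0938 with the loess trend removed, and 0.0879 and 0.0681 without replicate 5 of the controls or replicate 4 of the depolarized group.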
